A study of Homo sapiens with 12 samples.

Results

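HMEC-1 cells given oncostatin M together with CBP300 were compared with untreated HMEC-1 cells, to describe the net state of cells under both agents. The comparison takes 6 of the 12 libraries of the series, 3 of the treated group and 3 of the control group. Of the 60623 genes in the deposited table, 15594 had at least 1 TPM (transcripts per 1000000 transcripts, a level that is scaled for gene length and to a fixed total per library) in at least 3 of these 6 libraries, and only these were tested. HMEC-1 cells are immortalised endothelial cells from small vessels of human skin, so all replicates come from 1 line. The labels do not say whether the libraries of a group came from separate cultures. The p-values below therefore measure the spread between these libraries only. All cells grew in a medium with epidermal growth factor, hydrocortisone and serum. Treated cells (CBP300 cells) received oncostatin M with 10 µg/mL of CBP300, which the labels name an EP300 inhibitor. The dose of the cytokine was 10 ng/mL in the treatment protocol and 10 µg/mL in the sample labels, and the files do not say which applies. Cells with oncostatin M alone (OSM cells, 3 libraries) serve here as a second comparison. Control cells (CT cells) received fresh medium. RNA was taken after 48 h in every group. No library came from cells with CBP300 but without the cytokine, and no vehicle is named, so in the comparison with CT cells what the cytokine did and what the compound did cannot be told apart.

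Oncostatin M belongs to the interleukin-6 family of cytokines. It binds a receptor made of gp130 (gene IL6ST) and either OSMR or LIFR, which activates JAK kinases, the transcription factor STAT3 and the ERK kinases, and the target SOCS3 then damps the receptor. EP300 and its close relative CREBBP are acetyltransferases that modify histones and transcription factors at enhancers. In endothelium such enhancers carry genes of cell identity, among them ROBO4, a receptor that stabilises vessels, and PLVAP, which forms the diaphragms of endothelial fenestrae and caveolae.

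The libraries of CBP300 cells held 13418045 to 73297452 reads counted to genes, those of OSM cells 15750110 to 20812985 and those of CT cells 16788373 to 19571673, as recovered from the TPM values. Mitochondrially encoded RNA made up 17.9% ± 0.204 of the TPM in CBP300 cells, 17.6% ± 0.337 in OSM cells and 14.4% ± 1.63 in CT cells (SD, n = 3 each). CT replicate 1 stood apart from the other CT libraries, with a mean absolute log2 difference per gene of 0.595 and 0.490 to them, against 0.209 between those. GC content went with the level of a gene differently in each group. Per 10 percentage points of GC, the log2 level changed by -0.35 to -0.29 in CBP300 cells and by 0.22 to 0.60 in CT cells, measured from the average library. The plot of change against GC content shows the outcome. In the decile of genes with the lowest GC content the median log2 change between CBP300 and CT cells was 1.52, and in the decile with the highest it was -0.47. Whether this trend arose in the cells or in the libraries was not tested. Values from which splines on GC and on transcript length had been subtracted, called corrected values, are therefore given beside the change of a named gene where they move its fold by more than 1.5 times or end its call, and beside the counts of the main gene lists.

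**Figure D1:**
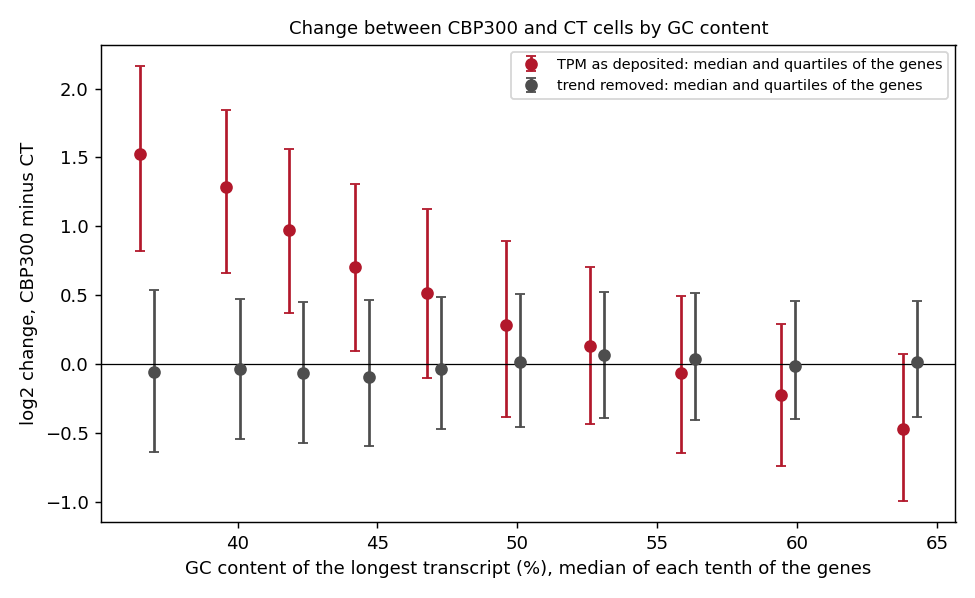
Change between CBP300 and CT cells on the log2(TPM + 1) scale (y axis) against the GC content of the longest transcript in percent (x axis), for 10 groups of genes of equal size ordered by GC content. Points are medians and bars run between the quartiles of the genes. The median of the deposited values is 1.52 in the decile with the lowest GC content and -0.47 in the decile with the highest, and the corrected medians are -0.06 and 0.01 in those groups.

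Most expressed genes differed between CBP300 and CT cells. In limma on log2(TPM + 1), with p-values adjusted over the 15594 genes by the Benjamini-Hochberg method and called at an adjusted p under 0.05, 11634 genes (74.6%) were called, of which 7932 (50.9% of those tested) were higher and 3702 (23.7%) lower in CBP300 cells. The change was at least 2-fold for 4749 of the genes called higher (30.5% of those tested) and for 1392 of those called lower (8.93%). The median gene was higher by 0.43 on the log2 scale, and scaling by median ratios, which sets that median to 0.00, gave 5896 genes higher and 5779 lower. In corrected values 5209 genes (33.6% of 15498) were higher and 5146 (33.2%) were lower. Of the genes called in the deposited values, 4340 were also called higher and 2539 also called lower in the corrected ones, while 1391 called higher in the first were called lower in the second. The 6 libraries did not overlap between the groups for 79.4% of the tested genes, with CBP300 cells above for 53.6% and below for 25.8%. The filter let in 750 genes through CBP300 cells alone and 319 through CT cells alone, which had to differ, and without both sets 7194 genes were higher and 3396 lower. The gene lists below hold up to 3 such genes each. Against OSM cells, 2375 genes (15.2%) were higher and 2101 (13.5%) were lower in CBP300 cells. The counts of every gene list below are to be read against these shares of all tested genes. They are 50.9% higher and 23.7% lower against CT cells, 33.6% and 33.2% in corrected values, and 15.2% and 13.5% against OSM cells. That second comparison uses the same CBP300 libraries as the first, so both are given side by side and are not independent. Its standard errors use the spread shared over all 12 libraries, so scatter among the CT libraries enters them too. Some genes did not pass although their CBP300 and OSM libraries did not overlap.

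Target RNAs of gp130 signalling were high in CBP300 cells. SOCS3, the feedback inhibitor of the receptor, had 453, 451 and 445 TPM in the CBP300 libraries, 376, 379 and 391 TPM in the OSM libraries and 5.47, 11.5 and 9.57 TPM in the CT libraries. All CBP300 and OSM libraries were far above every CT library, and the log2 change between CBP300 and CT cells was 5.57 (SE 0.20, limma adjusted p = 4.46e-08). It was 5.83 in corrected values. Between CBP300 and OSM cells the log2 difference in SOCS3 was 0.23, with a 95% interval of -0.21 to 0.68 (limma adjusted p = 0.388). The interval rests on the spread shared with the CT libraries, and every CBP300 library lay above every OSM library. Of the 19 tested STAT3 targets and feedback genes, 17 were higher and 0 lower in CBP300 than in CT cells, against 50.9% and 23.7% of all tested genes. Their median log2 change was 1.66, against 0.43 over all tested genes. In corrected values the counts were also 17 and 0 and the median was 2.11, against -0.01. Median-of-ratios scaling gave 15 higher and 1 lower. Against OSM cells 4 of the 19 were higher and 4 lower.

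LRG1, a secreted glycoprotein that promotes vessel growth and a known STAT3 target, had a level between those of the other groups. It had 39.0, 40.9 and 39.2 TPM in CBP300 cells, 71.2, 68.1 and 67.9 TPM in OSM cells and 2.18, 2.05 and 2.03 TPM in CT cells. The 3 groups did not overlap. The log2 change was 3.72 against CT cells (SE 0.08, limma adjusted p = 1.7e-09) and -0.78 against OSM cells (limma adjusted p = 6.03e-05). The 250 bases before its RefSeq start (GRCh38.p14, chr19:4540037-4540286, minus strand) are shown because they hold a match to the STAT motif TTCNNNGAA, in capitals, whose first base lies 162 bases before the start.
LRG1: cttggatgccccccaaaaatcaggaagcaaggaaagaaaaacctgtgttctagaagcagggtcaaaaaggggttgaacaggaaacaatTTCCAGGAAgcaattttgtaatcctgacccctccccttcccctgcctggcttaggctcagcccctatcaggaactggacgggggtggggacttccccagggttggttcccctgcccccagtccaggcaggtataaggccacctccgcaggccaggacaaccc
The motif was sought on both strands, and 6.567% of the 35116 RefSeq promoter windows of this length held it. Windows were at hand for 15 of the 19 tested STAT3 targets, and 2 of these, LRG1 and BCL6, held a match. BCL6, a transcriptional repressor, had 38.9, 37.8 and 35.7 TPM in CBP300 cells and 3.03, 6.67 and 4.77 TPM in CT cells. CEBPD, an inflammation-induced transcription factor, had 277, 285 and 304 TPM in CBP300 cells, 412, 409 and 427 TPM in OSM cells and 65.8, 59.4 and 65.8 TPM in CT cells. Both rose against CT cells without overlap, by 2.77 and 2.16 on the log2 scale (limma adjusted p = 1.07e-05 and 1.69e-07, corrected 2.18 and 2.97). Against OSM cells CEBPD was lower in the deposited values (-0.53, limma adjusted p = 0.003) but did not pass in the corrected ones (-0.13, limma adjusted p = 0.126), and BCL6 passed in the corrected values alone (-0.56, limma adjusted p = 0.0964, and -0.69, limma adjusted p = 0.00268, corrected).

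TIMP1 and MCL1, also STAT3 targets, stood above both other groups. TIMP1, an inhibitor of matrix metalloproteinases, had 2562, 2537 and 2716 TPM in CBP300 cells, 1131, 1215 and 1285 TPM in OSM cells and 1184, 650.0 and 727 TPM in CT cells. It was higher than in CT cells by 1.66 (limma adjusted p = 8.4e-05, corrected 2.47) and than in OSM cells by 1.11 (limma adjusted p = 0.00406) on the log2 scale, with no overlap in either case. MCL1, which protects cells from apoptosis, had 969, 965 and 918 TPM in CBP300 cells and 165, 293 and 257 TPM in CT cells, a log2 change of 2.03 (limma adjusted p = 2.15e-05, corrected 1.11). It also exceeded OSM cells, by 1.13 (limma adjusted p = 0.00235). In contrast BCL3, a nuclear partner of NF-kappaB, averaged 67.6 ± 2.18 TPM in CBP300 cells, 85.7 ± 6.73 TPM in OSM cells and 23.3 ± 0.642 TPM in CT cells (SD, n = 3 each), and was lower than in OSM cells by the test (log2 difference -0.33, limma adjusted p = 0.0369) but not in corrected values (0.06, limma adjusted p = 0.649).

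Receptor chains and kinases of the pathway were higher too. Of 13 tested genes of this list, 10 rose and 1 fell against CT cells, with a median log2 change of 1.81 (0.61 in corrected values, where 9 rose and 1 fell). Of all tested genes 50.9% rose and 23.7% fell (33.6% and 33.2% corrected). OSMR, the specific receptor chain of the cytokine, had 198, 216 and 190.1 TPM in CBP300 cells, 156, 136 and 131 TPM in OSM cells and 13.8, 24.4 and 23.8 TPM in CT cells, with no overlap between CBP300 and CT cells. Its log2 change was 3.26 (limma adjusted p = 4.01e-06) and 2.11 in corrected values. OSMR did not pass against OSM cells (0.51, limma adjusted p = 0.123), though the CBP300 and OSM libraries did not overlap. LIFR, the other partner of gp130, had 30.1, 31.3 and 26.7 TPM in CBP300 cells, 7.34, 5.97 and 5.08 TPM in OSM cells and 0.627, 2.99 and 2.05 TPM in CT cells. CBP300 libraries exceeded all others, and the log2 change was 3.48 against CT cells (limma adjusted p = 2.79e-05, corrected 1.35) and 2.10 against OSM cells (limma adjusted p = 0.00197, corrected 1.38). IL6ST itself had 268, 277 and 248 TPM in CBP300 cells and 6.80, 46.9 and 30.6 TPM in CT cells. Its log2 change of 3.54 was 2.77 without CT replicate 1 and 1.48 in corrected values. STAT3 averaged 119 ± 1.89 TPM in CBP300 cells, 86.7 ± 4.39 TPM in OSM cells and 33.5 ± 5.32 TPM in CT cells (SD, n = 3 each), a log2 change of 1.81 (limma adjusted p = 5.87e-06, corrected 1.12). The member that fell was STAT5A, another STAT factor, with a log2 change of -0.997 (limma adjusted p = 2.01e-05). The RNA of the cytokine, OSM, was listed at 0 in all 6 libraries.

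Acute phase and complement genes, a hallmark of this cytokine family, gave 6 higher and 0 lower of 7 tested, but 3 and 2 in corrected values. Of these, C1S passed the filter through CBP300 cells alone. C1R, a protease that starts the complement cascade, had 24.5, 26.7 and 24.1 TPM in CBP300 cells, 58.9, 57.2 and 66.0 TPM in OSM cells and 4.38, 3.87 and 4.14 TPM in CT cells. Each group was apart from the others, and C1R was above CT cells by 2.35 (limma adjusted p = 9.04e-08) and differed from OSM cells by -1.24 on the log2 scale (limma adjusted p = 1.42e-05). C1S, its partner protease, followed the same order, with 2.10 ± 0.305 TPM in CBP300 cells, 8.16 ± 0.276 TPM in OSM cells and 0.406 ± 0.162 TPM in CT cells (SD, n = 3 each).

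**Figure D2:**
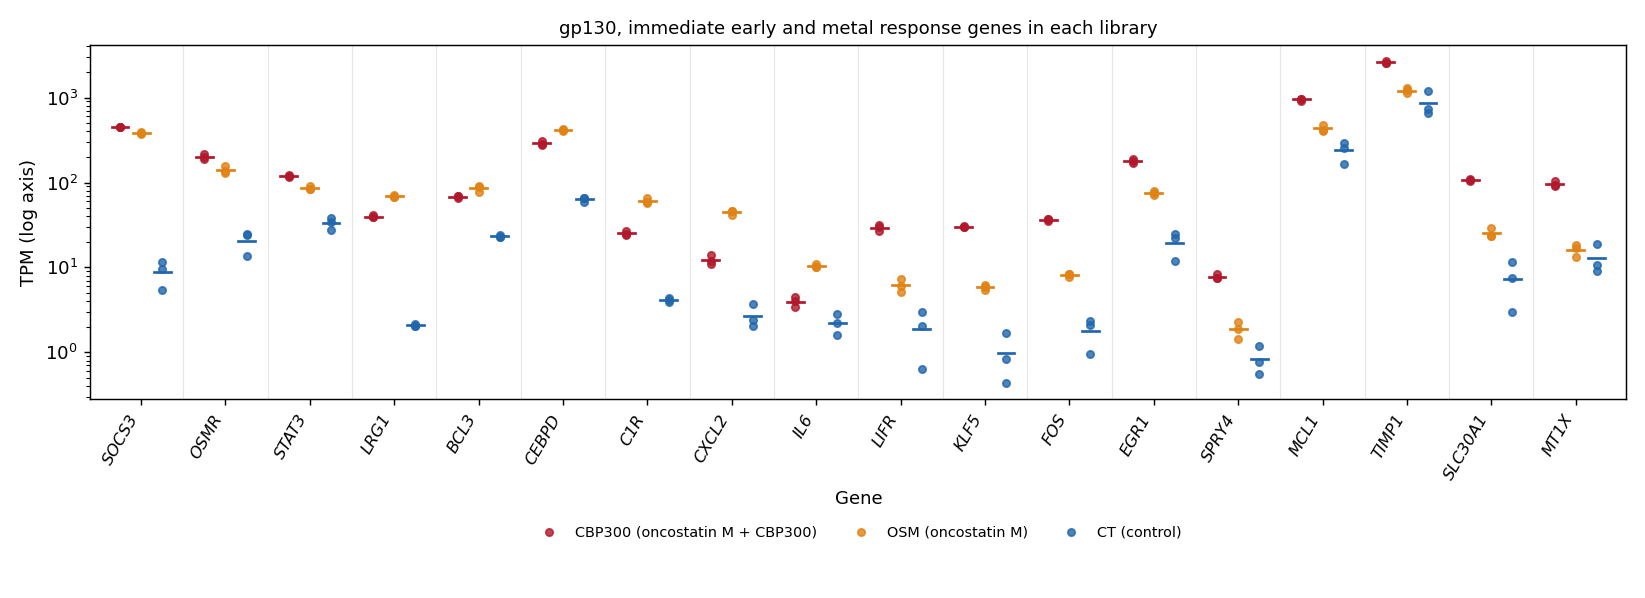
TPM of 18 genes in each library on a log axis (y axis), with CBP300 cells (red), OSM cells (orange) and CT cells (blue) side by side for each gene (x axis). Points are single libraries and bars are group means. SOCS3, OSMR and STAT3 lie high in CBP300 and OSM cells, LRG1, C1R and CXCL2 lie lower in CBP300 than in OSM cells, and LIFR, KLF5, FOS, EGR1, SLC30A1 and MT1X lie highest in CBP300 cells.

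Immediate early genes, which growth factor and stress signals switch on within minutes, were high in CBP300 cells after 48 h. Of 18 tested members of the list, 14 were higher and 1 lower against CT cells, with a median log2 change of 0.73. The counts were 13 and 1 in corrected values and 11 and 2 after median-of-ratios scaling. Against OSM cells 10 were higher and 1 lower, against 15.2% and 13.5% of all tested genes. FOS, a subunit of the AP-1 transcription factor, had 36.8, 35.6 and 36.9 TPM in CBP300 cells, 7.70, 8.31 and 8.28 TPM in OSM cells and 0.948, 2.35 and 2.10 TPM in CT cells. The groups did not overlap, and the log2 change was 3.78 against CT cells (SE 0.18, limma adjusted p = 3.2e-07) and 2.04 against OSM cells (limma adjusted p = 3.47e-05). EGR1, a zinc finger factor of the same early class, had 172, 189 and 179 TPM in CBP300 cells, 71.9, 75.3 and 80.5 TPM in OSM cells and 11.8, 24.6 and 22.4 TPM in CT cells. It was likewise highest in every CBP300 library, by 3.20 over CT cells (limma adjusted p = 5.52e-06) and by 1.24 over OSM cells (limma adjusted p = 0.00472). The gene spans chr5:138465490-138469315 on the plus strand of GRCh38, and the 250 bases before its RefSeq start (chr5:138465229-138465478, GRCh38.p14) are shown for the pair of CArG boxes, the sites of serum response factor, which are in capitals.
EGR1: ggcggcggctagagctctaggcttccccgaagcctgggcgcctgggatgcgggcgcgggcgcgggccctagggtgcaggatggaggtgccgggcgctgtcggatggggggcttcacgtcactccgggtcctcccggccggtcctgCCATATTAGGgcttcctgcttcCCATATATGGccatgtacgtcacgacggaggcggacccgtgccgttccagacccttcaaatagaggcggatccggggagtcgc
Their first bases lie 105 and 83 bases before the start. Of all RefSeq windows, 1.159% held at least 1 CArG box and 0.03132% at least 2, and EGR1 was the only 1 of the 14 list members with a window to hold any. JUNB, a further AP-1 subunit and STAT3 target, averaged 275 ± 8.77 TPM in CBP300 cells, 181 ± 10.2 TPM in OSM cells and 50.4 ± 5.18 TPM in CT cells (SD, n = 3 each). Its log2 change against CT cells was 2.43 (limma adjusted p = 1.3e-07, corrected 3.22). FOSL1, the member that fell against CT cells (-0.67, limma adjusted p = 0.00019), had a corrected change of 0.01.

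The feedback genes of the ERK pathway, which ERK activity induces and which restrain it, went the same way. Of 17 tested, 12 were higher and 1 lower than in CT cells (12 and 3 in corrected values), and 8 were higher and 1 lower than in OSM cells. Of all tested genes 50.9% and 23.7% were called against CT cells, and 15.2% and 13.5% against OSM cells. SPRY4, a Sprouty inhibitor of receptor signalling, had 8.34, 7.47 and 7.46 TPM in CBP300 cells, 1.86, 2.27 and 1.45 TPM in OSM cells and 0.557, 1.20 and 0.765 TPM in CT cells. Its log2 change was 2.26 against CT cells (limma adjusted p = 5.62e-06, corrected 1.53) and 1.62 against OSM cells (limma adjusted p = 0.000111), without overlap in either comparison. DUSP6, a phosphatase of ERK, averaged 98.7 ± 5.54 TPM in CBP300 cells, 52.3 ± 4.31 TPM in OSM cells and 19.0 ± 9.29 TPM in CT cells (SD, n = 3 each), and against OSM cells it passed in corrected values alone (limma adjusted p = 0.052, and 0.0106 corrected). Its log2 change against CT cells was 2.45 (limma adjusted p = 8.01e-05, corrected 1.58). ETV5, a transcription factor that ERK signalling induces, had 57.3, 54.7 and 55.4 TPM in CBP300 cells, 20.1, 19.3 and 20.8 TPM in OSM cells and 13.2, 18.3 and 17.5 TPM in CT cells. OSM and CT cells were close to each other and CBP300 cells were above both, by 1.72 over CT cells (limma adjusted p = 1.02e-05, corrected 1.05) and 1.43 over OSM cells (limma adjusted p = 8.32e-05). DUSP1, a phosphatase of stress-activated kinases, had 243, 228 and 235 TPM in CBP300 cells and 59.6, 146 and 116 TPM in CT cells, a log2 change of 1.22 (limma adjusted p = 0.00149).

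Hypoxia and glycolysis genes were mostly higher than in CT cells, and the share called against OSM cells was near that of all tested genes. Of 24 tested, 18 rose and 1 fell against CT cells, with a median log2 change of 1.34 (0.90 corrected, with 19 higher and 1 lower). Median-of-ratios scaling gave 16 higher and 6 lower. Against OSM cells 5 were higher and 2 lower, where 15.2% and 13.5% of all tested genes were called. HIF1A, the oxygen-regulated transcription factor, had 311, 323 and 291 TPM in CBP300 cells, 219, 178 and 172 TPM in OSM cells and 4.94, 37.2 and 21.4 TPM in CT cells. Its log2 change of 4.17 was 3.40 without CT replicate 1 and 2.55 in corrected values. SLC2A3, a glucose transporter, had 223, 225 and 202 TPM in CBP300 cells, 126, 122 and 118 TPM in OSM cells and 10.9, 14.3 and 14.9 TPM in CT cells. The 3 groups were apart, and the log2 change was 3.93 against CT cells (SE 0.13, limma adjusted p = 1.86e-08, corrected 2.99) and 0.82 against OSM cells (limma adjusted p = 0.00116). HK2, which traps glucose by phosphorylation, averaged 26.6 ± 1.96 TPM in CBP300 cells, 20.04 ± 2.03 TPM in OSM cells and 2.64 ± 1.08 TPM in CT cells (SD, n = 3 each). Its log2 change against CT cells was 2.97 (limma adjusted p = 4.63e-06, corrected 2.24). VEGFA, the angiogenic growth factor, averaged 15.6 ± 0.344 TPM in CBP300 cells, 13.3 ± 1.06 TPM in OSM cells and 2.83 ± 1.19 TPM in CT cells (SD, n = 3 each), and rose by 2.16 against CT cells (limma adjusted p = 1.85e-05, corrected 1.32). The member that fell, CA9, a carbonic anhydrase of hypoxic cells, changed by -0.67 (limma adjusted p = 0.0248) and by 0.04 in corrected values.

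Most genes of endothelial identity fell. Of 30 tested genes of the endothelial surface, 19 were lower and 4 higher in CBP300 than in CT cells, against 23.7% lower and 50.9% higher among all tested genes. The median log2 change was -1.12, against 0.43 over all genes. CLDN5, EMCN and VWF passed the filter through CT cells alone and so had to be lower, and of the other 27 members 16 were lower and 4 higher, with a median of -1.02. In corrected values 23 were lower and 4 higher, with a median of -1.38, and without CT replicate 1 the counts were 21 and 4. Against OSM cells 22 were lower and 1 higher, where 13.5% and 15.2% of all tested genes were called. Of 36 listed genes, 6 stayed under the filter and were not tested. In bulk RNA, fewer cells that express these genes and less of their RNA per cell cannot be told apart.

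ROBO4 (ENSG00000154133, chr11:124883691-124898500 in GRCh38) had 18.4, 20.4 and 18.5 TPM in CBP300 cells, 114, 119.7 and 126 TPM in OSM cells and 137, 145 and 146 TPM in CT cells. Every CBP300 library was far below every other, with mean levels 7.46-fold higher in CT than in CBP300 cells. The log2 change was -2.84 against CT cells (SE 0.08, limma adjusted p = 9.4e-09), -3.06 in corrected values and -2.59 against OSM cells (limma adjusted p = 3.73e-08). PLVAP (ENSG00000130300, chr19:17351448-17377350 in GRCh38) had 3.32, 3.06 and 3.36 TPM in CBP300 cells, 26.8, 30.1 and 27.6 TPM in OSM cells and 84.8, 101 and 91.1 TPM in CT cells. The 3 groups stood in that order with no overlap. The log2 change was -4.45 against CT cells (SE 0.11, limma adjusted p = 5.71e-09) and -2.78 against OSM cells (limma adjusted p = 1.58e-07). Between OSM and CT cells the log2 change was -0.25 for ROBO4 and -1.67 for PLVAP (limma adjusted p = 0.0211 and 5.85e-06). PLVAP thus had its OSM level between the other groups, while the OSM level of ROBO4 lay near that of CT cells.

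**Figure D3:**
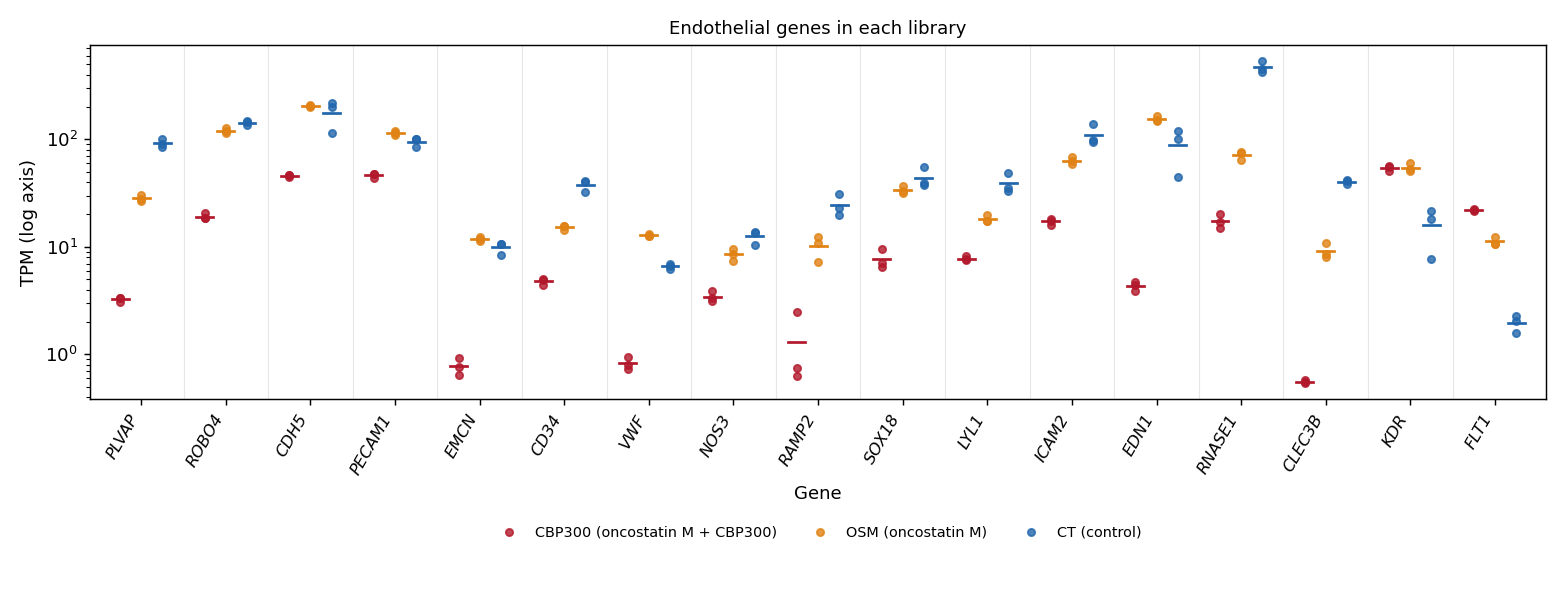
TPM of 17 endothelial genes in each library on a log axis (y axis), with CBP300 cells (red), OSM cells (orange) and CT cells (blue) side by side for each gene (x axis). Points are single libraries and bars are group means. CBP300 cells lie lowest for every gene from PLVAP to CLEC3B, and KDR and FLT1 are higher in CBP300 than in CT cells.

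Further genes of junctions and the cell surface were lowest in CBP300 cells. CDH5, the cadherin of endothelial junctions, had 44.7, 46.2 and 46.6 TPM in CBP300 cells, 206, 198 and 203 TPM in OSM cells and 114, 219.5 and 198 TPM in CT cells. PECAM1, an adhesion molecule of the same junctions, had 47.8, 47.5 and 43.4 TPM in CBP300 cells, 120.3, 116 and 110.0 TPM in OSM cells and 84.4, 99.8 and 101 TPM in CT cells. CBP300 libraries were below all others for both, with log2 changes of -1.87 and -1.02 against CT cells (limma adjusted p = 6.04e-05 and 2.78e-05, corrected -2.20 and -1.96) and -2.12 and -1.30 against OSM cells (limma adjusted p = 0.000101 and 1.74e-05). VWF, the clotting glycoprotein stored in endothelial granules, had 0.733, 0.949 and 0.795 TPM in CBP300 cells, 12.7, 13.2 and 12.7 TPM in OSM cells and 6.64, 6.97 and 6.28 TPM in CT cells. EMCN, a surface mucin of capillaries and veins, had 0.925, 0.759 and 0.639 TPM in CBP300 cells, 11.8, 12.3 and 11.4 TPM in OSM cells and 8.45, 10.6 and 10.7 TPM in CT cells. For both, all CBP300 libraries were under 1 TPM and all others well above it, and the log2 changes against CT cells were -2.06 and -2.62 (-2.63 and -4.26 corrected), given without a test because both genes passed the filter through CT cells alone. STAB1, a scavenger receptor, averaged 10.8 ± 0.797 TPM in CBP300 cells, 117 ± 1.91 TPM in OSM cells and 38.8 ± 2.49 TPM in CT cells (SD, n = 3 each), so that it was highest in OSM cells and lowest in CBP300 cells. CD34, a sialomucin of endothelial and blood progenitor cells, averaged 4.78 ± 0.298 TPM in CBP300 cells, 15.2 ± 0.613 TPM in OSM cells and 37.8 ± 4.55 TPM in CT cells (SD, n = 3 each). RAMP2, the partner of the adrenomedullin receptor, had 0.636, 2.50 and 0.741 TPM in CBP300 cells and 30.8, 19.7 and 22.8 TPM in CT cells, while its receptor CALCRL changed by 2.63 (limma adjusted p = 0.000152) and by 0.65 in corrected values.

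The members that rose against CT cells were FLT1, KDR, CALCRL and FLT4, the receptor of lymphatic growth factors, which changed by 0.69 (limma adjusted p = 0.00343). FLT1, a VEGF receptor that also acts as a decoy, had 21.9, 22.5 and 21.5 TPM in CBP300 cells, 12.5, 10.7 and 10.7 TPM in OSM cells and 1.59, 2.29 and 2.06 TPM in CT cells. It was above CT cells by 2.95 (limma adjusted p = 2.03e-06, corrected 1.67) and above OSM cells by 0.91 (limma adjusted p = 0.00635), with no overlap. KDR, the main signalling receptor for VEGF, had 55.6, 56.4 and 50.7 TPM in CBP300 cells, 59.8, 51.2 and 52.5 TPM in OSM cells and 7.70, 21.6 and 18.3 TPM in CT cells. CBP300 and OSM cells overlapped, with a log2 difference of -0.01 and a 95% interval of -0.74 to 0.73, and both lay above CT cells (1.82 for CBP300 cells, limma adjusted p = 0.000569, corrected 0.78).

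Endothelial transcription factors split. Of 24 tested, 8 were higher and 5 lower than in CT cells, where 50.9% and 23.7% of all tested genes were called. In corrected values 7 were higher and 10 lower, where 33.6% and 33.2% were called. The balance thus depended on the correction, as did that of all tested genes. SOX18, a factor of vascular and lymphatic development, had 6.56, 7.07 and 9.61 TPM in CBP300 cells, 31.9, 33.4 and 36.5 TPM in OSM cells and 55.1, 37.4 and 39.5 TPM in CT cells. LYL1, a relative of the blood and vessel factor TAL1, had 7.67, 8.21 and 7.5003 TPM in CBP300 cells, 17.3, 17.4 and 19.8 TPM in OSM cells and 48.1, 33.3 and 35.6 TPM in CT cells. Both were lowest in CBP300 cells without overlap, with log2 changes of -2.36 and -2.17 against CT cells (limma adjusted p = 5.64e-06 and 4.42e-06, corrected -1.44 and -1.55) and -2.01 and -1.12 against OSM cells (limma adjusted p = 3.67e-05 and 0.000694). ETS1, a factor that binds many endothelial promoters, averaged 111 ± 6.72 TPM in CBP300 cells, 117 ± 12.3 TPM in OSM cells and 29.6 ± 15.6 TPM in CT cells (SD, n = 3 each). Its log2 change against CT cells was 2.04 (limma adjusted p = 0.000727, corrected 0.71). KLF2, which laminar flow induces, had 165, 169 and 179 TPM in CBP300 cells, 74.4, 79.5 and 76.4 TPM in OSM cells and 172, 203 and 179 TPM in CT cells. CBP300 and CT cells overlapped for KLF2 (-0.10, limma adjusted p = 0.341, and 0.61 in corrected values, limma adjusted p = 0.000221), and CBP300 cells were above OSM cells by 1.15 (limma adjusted p = 2.21e-05).

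More vasoactive genes fell than rose. Of 13 tested, 2 were higher and 7 lower than in CT cells (3 and 8 corrected). Without PTGIS and NPR1, which passed the filter through CT cells alone, 2 were higher and 5 lower of 11, where 50.9% and 23.7% of all tested genes were called. EDN1, the vasoconstrictor endothelin, had 4.44, 3.86 and 4.73 TPM in CBP300 cells, 165, 148 and 152 TPM in OSM cells and 44.4, 119.6 and 99.7 TPM in CT cells. OSM cells were highest and CBP300 cells lowest, with a log2 change of -3.94 against CT cells (SE 0.30, limma adjusted p = 5.33e-06) and -4.87 against OSM cells (limma adjusted p = 3.13e-06). RNASE1, an endothelial ribonuclease that clears extracellular RNA, had 14.9, 16.9 and 20.3 TPM in CBP300 cells, 64.9, 74.3 and 76.4 TPM in OSM cells and 537, 418 and 453 TPM in CT cells. Here OSM cells were intermediate, and the log2 change was -4.68 against CT cells (SE 0.14, limma adjusted p = 1.15e-08) and -1.996 against OSM cells (limma adjusted p = 7.22e-06). NOS3, which makes nitric oxide, averaged 3.44 ± 0.405 TPM in CBP300 cells, 8.57 ± 1.10 TPM in OSM cells and 12.6 ± 1.89 TPM in CT cells (SD, n = 3 each), a log2 change of -1.61 against CT cells (limma adjusted p = 2.25e-05). Coagulation and fibrinolysis genes gave 3 higher and 8 lower of 15 tested (2 and 10 corrected). VWF passed the filter through CT cells alone, and the other 14 gave 3 higher and 7 lower (2 and 9 corrected). Of all tested genes 50.9% were higher and 23.7% lower (33.6% and 33.2% corrected). PLAU, the urokinase plasminogen activator, averaged 56.5 ± 0.460 TPM in CBP300 cells, 90.8 ± 2.89 TPM in OSM cells and 182 ± 18.9 TPM in CT cells (SD, n = 3 each), a log2 change of -1.67 against CT cells (limma adjusted p = 3.42e-07).

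The 12 defining endothelial markers summed to 685 to 731 TPM in CBP300 cells, 1327 to 1387 TPM in OSM cells and 1537 to 1633 TPM in CT cells, and none was at 0 in all 6 libraries. Of 14 leukocyte markers 2 passed the filter and CD3E and MS4A1 were at 0 in all 6 libraries. The list summed to 17.1 to 19.2 TPM in CBP300 cells and 5.83 to 8.58 TPM in CT cells. CD14, a coreceptor for bacterial lipopolysaccharide, made up most of it in CBP300 cells, with 15.6, 17.2 and 17.2 TPM in CBP300 cells and 3.95, 4.11 and 2.96 TPM in CT cells (limma adjusted p = 4.77e-06). Of 11 epithelial markers 5 passed the filter, KRT19 through CT cells alone, and the other 4 fell, CDH1 was at 0, and the list, mostly KRT18, summed to 536 to 547 TPM in CBP300 cells and 819 to 1101 TPM in CT cells. Of 15 markers of smooth muscle, pericytes and fibroblasts 6 passed the filter, 1 rose, 3 fell, and DCN, LUM and KCNJ8 were at 0. That list summed to 37.8 to 40.4 TPM in CBP300 cells and 110.2 to 139 TPM in CT cells. Of 7 markers of lymphatic endothelium 2 passed the filter and both rose, but neither after median-of-ratios scaling. The part of these markers in the other results was not tested.

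Chemokines and cytokines stood lower than under the cytokine alone. Of 12 tested, 4 were higher and 7 lower than in CT cells (4 and 7 corrected, LIF among them, which passed the filter through CT cells alone), while 0 were higher and 11 lower than in OSM cells. CXCL2, a neutrophil chemokine, had 13.8, 11.1 and 12.01 TPM in CBP300 cells, 41.4, 46.5 and 45.6 TPM in OSM cells and 2.39, 2.04 and 3.70 TPM in CT cells. IL6, the founding cytokine of the family, had 4.45, 3.44 and 3.99 TPM in CBP300 cells, 11.05, 10.0 and 10.1 TPM in OSM cells and 1.61, 2.24 and 2.80 TPM in CT cells. Both lay between OSM and CT cells without overlap, above CT cells by 1.86 and 0.64 (limma adjusted p = 1.26e-05 and 0.00762) and apart from OSM cells by -1.78 and -1.21 (limma adjusted p = 4.32e-05 and 0.000894). CXCL12, which guides stem and immune cells, had 10.5, 10.8 and 11.6 TPM in CBP300 cells, 63.4, 58.0 and 57.9 TPM in OSM cells and 16.2, 26.2 and 24.5 TPM in CT cells, and CSF1, the growth factor of macrophages, had 6.10 ± 0.338 TPM in CBP300 cells, 18.4 ± 0.587 TPM in OSM cells and 13.5 ± 2.02 TPM in CT cells (SD, n = 3 each). These were lowest in CBP300 cells with log2 changes against CT cells of -0.93 and -1.03 (limma adjusted p = 0.00103 and 4.07e-05, corrected -1.57 and -1.15). ICAM1, which leukocytes bind, was in contrast at 97.2, 100.3 and 102 TPM in CBP300 cells, 85.4, 88.2 and 87.6 TPM in OSM cells and 21.8, 25.7 and 27.4 TPM in CT cells. It rose against CT cells by 1.96 (limma adjusted p = 3.52e-07), and the log2 difference to OSM cells was 0.19 with a 95% interval of -0.02 to 0.41 (0.30 corrected, limma adjusted p = 0.0166). ICAM2, a constitutive endothelial relative, had 16.01, 18.3 and 17.5 TPM in CBP300 cells, 58.8, 63.0 and 68.4 TPM in OSM cells and 139, 94.4 and 98.3 TPM in CT cells, a log2 change of -2.59 against CT cells (limma adjusted p = 1.56e-06, corrected -1.89). The counts of interferon-stimulated genes lay near the shares of all tested genes, with 20 higher and 9 lower of 36 tested in the deposited values, where 50.9% and 23.7% of all genes were called, and 10 and 15 in the corrected ones, where 33.6% and 33.2% were. LIPG, an endothelial lipase outside these lists, had 4.39, 5.21 and 4.65 TPM in CBP300 cells, 54.8, 48.4 and 46.9 TPM in OSM cells and 0.304, 0.995 and 0.709 TPM in CT cells, so it too lay between the other groups. LIPG passed the filter through CBP300 cells alone and so had to lie above CT cells.

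More collagen genes fell than rose. Among 22 tested collagens and collagen enzymes 7 were higher and 11 lower than in CT cells (5 and 14 corrected), and 0 were higher and 15 lower than in OSM cells. COL1A2 passed the filter through CT cells alone, and of the other 21 genes 7 were higher and 10 lower than in CT cells. COL1A1, a chain of type I collagen, had 7.78, 8.83 and 8.07 TPM in CBP300 cells, 33.9, 35.4 and 38.1 TPM in OSM cells and 71.8, 91.9 and 81.8 TPM in CT cells. The groups were in that order without overlap, with a log2 change of -3.16 against CT cells (SE 0.12, limma adjusted p = 7.09e-08). MGP, a matrix protein that binds bone morphogenetic proteins and blocks calcification, had 0.245, 0.125 and 0.191 TPM in CBP300 cells, 26.3, 28.9 and 27.3 TPM in OSM cells and 14.5, 11.5 and 12.2 TPM in CT cells. It was nearly lost from CBP300 cells and highest in OSM cells, with a log2 change of -4.59 against OSM cells (limma adjusted p = 4.68e-08). Against CT cells the log2 change was -3.53, given without a test because MGP passed the filter through CT cells alone. BGN, the proteoglycan biglycan, averaged 164 ± 10.2 TPM in CBP300 cells, 1019 ± 75.4 TPM in OSM cells and 1305 ± 100.2 TPM in CT cells (SD, n = 3 each). MMP2, a gelatinase, had 12.9, 13.6 and 13.4 TPM in CBP300 cells, 61.8, 59.9 and 62.7 TPM in OSM cells and 105, 118 and 123 TPM in CT cells, a log2 change of -3.02 against CT cells (limma adjusted p = 9.4e-09). Among 33 tested laminins, integrins and matrix glycoproteins 15 were higher and 11 lower, against 11 and 18 in corrected values. Without MGP 15 were higher and 10 lower of 32 (11 and 17 corrected). ITGB3, a receptor chain for vitronectin, had 48.1, 49.7 and 45.2 TPM in CBP300 cells, 66.2, 53.2 and 51.3 TPM in OSM cells and 1.59, 7.43 and 5.58 TPM in CT cells. Its log2 change was 3.21 (limma adjusted p = 0.000217) and 2.80 corrected.

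Among 20 tested contractile genes 7 were higher and 8 lower than in CT cells (6 and 11 corrected). No member was higher and 9 were lower than in OSM cells. Of all tested genes 50.9% and 23.7% were called against CT cells (33.6% and 33.2% corrected), and 15.2% and 13.5% against OSM cells. TAGLN, an actin-binding protein of contractile cells, had 4.19, 4.61 and 3.87 TPM in CBP300 cells, 63.8, 72.6 and 74.8 TPM in OSM cells and 96.0, 85.1 and 79.2 TPM in CT cells. The CBP300 libraries were apart from all others, with log2 changes of -4.07 against CT cells (SE 0.12, limma adjusted p = 1.25e-08) and -3.77 against OSM cells (limma adjusted p = 4.42e-08). MYL9, a myosin light chain, averaged 46.0 ± 1.49 TPM in CBP300 cells, 132 ± 7.94 TPM in OSM cells and 247 ± 85.9 TPM in CT cells (SD, n = 3 each). ACTA2, smooth muscle actin, averaged 1.09 ± 0.181 TPM in CBP300 cells, 5.52 ± 0.491 TPM in OSM cells and 7.49 ± 1.15 TPM in CT cells (SD, n = 3 each). Both fell against CT cells, with log2 changes of -2.35 and -2.02 (limma adjusted p = 1.03e-05 and 2.54e-06).

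Several genes that answer to metal ions were higher in CBP300 cells than in both other groups. MT1X, a metallothionein that binds zinc and copper, had 105, 90.0 and 93.7 TPM in CBP300 cells, 13.1, 18.3 and 17.1 TPM in OSM cells and 19.0, 10.5 and 9.16 TPM in CT cells. OSM and CT cells overlapped while CBP300 cells were above both, by 2.87 over CT cells (SE 0.24, limma adjusted p = 1.02e-05) and 2.51 over OSM cells (limma adjusted p = 5.65e-05). SLC30A1, the zinc exporter of the cell surface, had 108, 109 and 104 TPM in CBP300 cells, 29.4, 23.7 and 23.3 TPM in OSM cells and 3.02, 11.4 and 7.57 TPM in CT cells. CBP300 cells were again above all others, with log2 changes of 3.84 (2.11 corrected) against CT cells and 2.04 against OSM cells (limma adjusted p = 2.06e-05 and 0.00299). The 250 bases before the RefSeq start of MT1X (chr16:56682220-56682469, GRCh38.p14, plus strand) are shown for their 4 matches to the core of the metal response element, TGCNCNC, in capitals.
MT1X: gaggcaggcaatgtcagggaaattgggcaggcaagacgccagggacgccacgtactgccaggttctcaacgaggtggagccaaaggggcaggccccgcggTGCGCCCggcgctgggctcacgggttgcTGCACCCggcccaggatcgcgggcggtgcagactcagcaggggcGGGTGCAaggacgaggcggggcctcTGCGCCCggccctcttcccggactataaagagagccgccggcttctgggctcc
Their first bases lie 150, 122, 78 and 53 bases before the start. At least 1 match on either strand occurred in 49.1% of RefSeq windows and at least 4 in 1.768%. Windows were at hand for 12 of the 22 tested members of the list of NRF2 and metal response genes, and 10 of these held at least 1. MT1G, a related metallothionein, had 9.45, 7.85 and 7.34 TPM in CBP300 cells, 0.451, 1.90 and 1.44 TPM in OSM cells and 1.70, 1.90 and 3.25 TPM in CT cells. MT2A, a far more abundant member, had 5167, 5127 and 5286 TPM in CBP300 cells, 1796, 2156 and 2176 TPM in OSM cells and 6794, 3453 and 3694 TPM in CT cells. CBP300 cells lay within the range of CT cells for MT2A (log2 change 0.23, limma adjusted p = 0.419, and -0.27 after median-of-ratios scaling, corrected 0.91 with limma adjusted p = 0.0022) and above OSM cells by 1.35 (limma adjusted p = 0.00324). Metallothioneins are close relatives in sequence, and how the counting split reads among them is not known. Of the 22 members 10 were higher and 5 lower than in CT cells, and 15 and 4 in corrected values. GCLM and GCLC, the subunits of the enzyme that starts glutathione synthesis, rose by 2.80 and 2.28 (limma adjusted p = 5.61e-05 and 0.000145, corrected 1.10 and 1.32).

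The acetyltransferase that the labels give as the target of the compound, EP300 (chr22:41091786-41180079 in GRCh38), had 49.1, 57.9 and 49.8 TPM in CBP300 cells, 33.4, 27.9 and 26.8 TPM in OSM cells and 3.87, 9.96 and 7.43 TPM in CT cells. CBP300 and CT cells did not overlap, and the RNA was higher in CBP300 cells by 2.79 (SE 0.38, limma adjusted p = 0.000111) or 1.88 in corrected values. Against OSM cells the difference of 0.81 did not pass (limma adjusted p = 0.126), though every CBP300 library lay above every OSM library. These are RNA levels, which do not measure inhibition of the enzyme. CREBBP averaged 40.9 ± 2.93 TPM in CBP300 cells, 28.3 ± 2.06 TPM in OSM cells and 11.6 ± 3.60 TPM in CT cells (SD, n = 3 each). Of 23 tested acetyltransferases and partners 17 rose and 3 fell (14 and 4 corrected, with a median of 0.39). BRD2, a reader of acetylated histones, had 264, 275 and 260.5 TPM in CBP300 cells, 146, 139.9 and 132 TPM in OSM cells and 43.1, 89.1 and 79.2 TPM in CT cells, and was above both, by 1.97 over CT cells and 0.93 over OSM cells (limma adjusted p = 7.5e-05 and 0.0191).

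Several histone genes were higher than in OSM cells. Of 18 tested, 8 were higher and 0 lower than in OSM cells, and 10 were higher and 3 lower than in CT cells (12 and 0 corrected, 5 and 4 after median-of-ratios scaling). Of all tested genes 15.2% and 13.5% were called against OSM cells, and 50.9% and 23.7% against CT cells. H2BC21, a core histone whose transcript can be polyadenylated, averaged 9.88 ± 0.853 TPM in CBP300 cells, 3.14 ± 0.571 TPM in OSM cells and 3.44 ± 0.625 TPM in CT cells (SD, n = 3 each). Libraries here were selected for poly(A), which most histone transcripts lack.

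HOX genes, which record the position of a cell along the body axis, mostly fell. Of 28 tested, 4 were higher and 15 lower than in CT cells (6 and 13 corrected), and 1 was higher and 18 lower than in OSM cells. HOXB8 passed the filter through CT cells alone, and of the other 27 genes 4 were higher and 14 lower than in CT cells. HOXB5, which takes part in endothelial differentiation, had 4.77, 4.55 and 4.18 TPM in CBP300 cells, 12.9, 14.1 and 13.03 TPM in OSM cells and 15.7, 13.7 and 14.6 TPM in CT cells. CBP300 cells were apart from the rest, with log2 changes of -1.51 against CT cells (limma adjusted p = 5.22e-06) and -1.38 against OSM cells (limma adjusted p = 2.13e-05). HOXA4 and HOXC9 likewise fell, with log2 changes of -1.57 and -1.45 (limma adjusted p = 2.97e-05 and 2.91e-05).

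**Figure D4:**
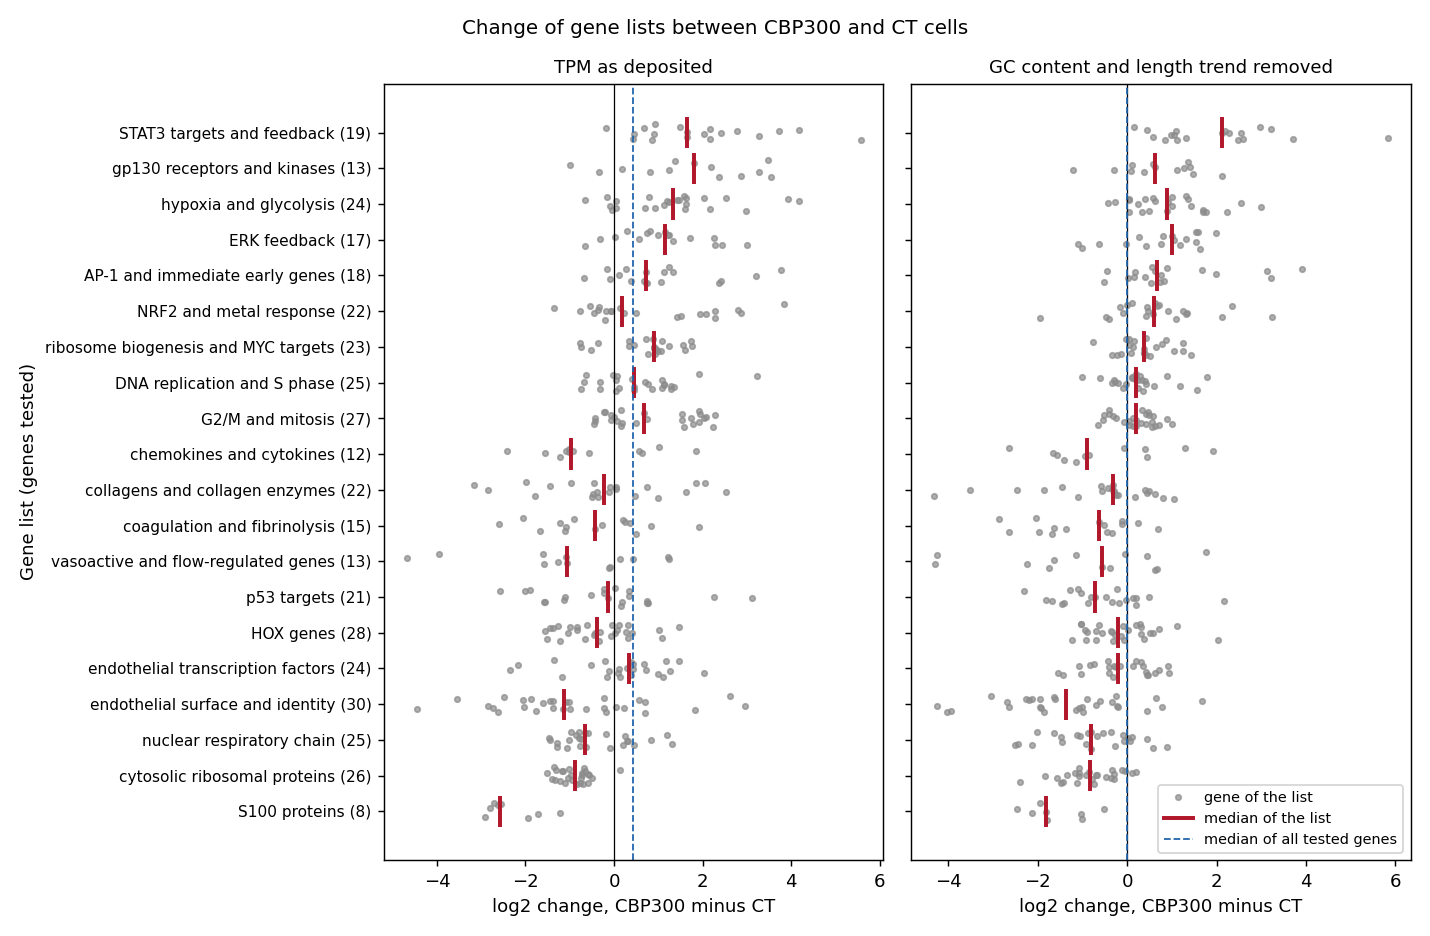
Log2 change between CBP300 and CT cells (x axis) for the tested genes of 20 lists (y axis, with the number of genes tested), in the deposited TPM (left) and with the GC content and length trend removed (right). Grey points are genes, red bars are list medians and the dashed line is the median of all tested genes. STAT3 targets have a median of 1.66 on the left and 2.11 on the right, endothelial surface genes -1.12 and -1.38, and S100 genes -2.58 and -1.81.

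In the deposited values counts of proliferation genes lay near the shares of all tested genes, of which 50.9% were higher and 23.7% lower. Among 25 tested genes of DNA replication 15 were higher and 5 lower than in CT cells, the same counts as in corrected values, and among 27 genes of mitosis the counts were 15 and 5 (13 and 7 corrected). Of all genes, 33.6% were higher and 33.2% lower in corrected values, so there both lists leaned higher. After median-of-ratios scaling the counts were near even, at 11 and 10 for replication and 13 and 12 for mitosis. CCNE2, a cyclin that drives entry into S phase, had 127, 123 and 118 TPM in CBP300 cells, 57.9, 49.7 and 46.1 TPM in OSM cells and 4.05, 23.0 and 17.7 TPM in CT cells, a log2 change of 3.23, or 2.54 without CT replicate 1 and 1.79 corrected. UHRF1, which maintains DNA methylation during replication, rose by 1.91 (1.55 corrected, limma adjusted p = 0.000234). CDKN2A, which encodes the cell cycle inhibitor p16, averaged 92.9 ± 3.85 TPM in CBP300 cells, 141 ± 9.97 TPM in OSM cells and 272 ± 24.1 TPM in CT cells (SD, n = 3 each). Its log2 change was -1.54 against CT cells (limma adjusted p = 1.55e-05, corrected -0.64). Against OSM cells it was -0.60 (limma adjusted p = 0.0113), but did not pass in corrected values (-0.16, limma adjusted p = 0.187).

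Targets of p53 leaned lower. Of 21 tested, 5 were higher and 9 lower than in CT cells, 2 and 13 in corrected values, and 0 and 10 against OSM cells. Of all tested genes 23.7% were lower than in CT cells, 33.2% in corrected values, and 13.5% were lower than in OSM cells. PHLDA3, an inhibitor of AKT, had 7.43, 7.16 and 8.66 TPM in CBP300 cells, 21.6, 23.5 and 24.7 TPM in OSM cells and 64.4, 43.5 and 47.4 TPM in CT cells. GDF15, a stress hormone, had 29.6, 32.04 and 29.1 TPM in CBP300 cells, 82.0, 101 and 94.3 TPM in OSM cells and 121, 129 and 124 TPM in CT cells. Both were lowest in CBP300 cells without overlap with log2 changes against CT cells of -2.58 and -2.01 (limma adjusted p = 2.09e-06 and 1.02e-06, corrected -2.30 and -1.03). PMAIP1, a proapoptotic gene that p53 and other factors control, went the other way, with 104, 101 and 97.5 TPM in CBP300 cells, 67.0, 51.1 and 52.2 TPM in OSM cells and 4.20, 21.5 and 13.1 TPM in CT cells, a log2 change of 3.11 or 2.52 without CT replicate 1 and 2.16 corrected. BCL2L11, which encodes the proapoptotic protein BIM, had 47.1, 45.2 and 43.8 TPM in CBP300 cells, 15.7, 15.7 and 14.2 TPM in OSM cells and 4.39, 7.83 and 6.70 TPM in CT cells. It was above CT cells by 2.69 (limma adjusted p = 4.97e-06, corrected 1.63) and above OSM cells by 1.52 (limma adjusted p = 0.000485).

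S100 genes, which encode small calcium-binding proteins, fell. Of 8 tested, S100A2 and S100A3 passed the filter through CT cells alone and so had to be lower. The other 6 were all lower than in CT cells in the deposited values, in corrected values and after median-of-ratios scaling, with a median log2 change of -2.62 (-1.81 corrected). The listed genes summed to 2279 to 2384 TPM in CBP300 cells and 8730.3 to 12418 TPM in CT cells. S100A6, an abundant member, had 743, 744 and 766 TPM in CBP300 cells, 912, 976 and 956 TPM in OSM cells and 6488, 4352 and 4987 TPM in CT cells. OSM cells lay far nearer to CBP300 cells than to CT cells, with a log2 difference of -0.34 (95% interval -0.70 to 0.03), and the change against CT cells was -2.79 (limma adjusted p = 1.14e-06, corrected -1.81). S100A13, which assists the release of growth factors, averaged 27.6 ± 2.17 TPM in CBP300 cells, 66.6 ± 4.62 TPM in OSM cells and 197 ± 86.6 TPM in CT cells (SD, n = 3 each), and fell against OSM cells as well (-1.24, limma adjusted p = 0.00697).

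Cytosolic ribosomal protein genes were lower in 25 of 26 cases and higher in 0, with a median of -0.89 (-0.83 corrected, where 20 were lower and 1 was higher). RPS15, of the small subunit, had 631, 624 and 641 TPM in CBP300 cells, 854, 962 and 1015 TPM in OSM cells and 2316, 1383 and 1430.5 TPM in CT cells. RPL5, of the large subunit, was the member that did not pass, at 0.14 (limma adjusted p = 0.3, corrected -0.48 with limma adjusted p = 0.00849), and it was at -0.36 after median-of-ratios scaling. Ribosomal protein genes have many processed pseudogenes, so their counts may be shared with copies. Genes for making ribosomes moved the other way, with 19 higher and 4 lower of 23 (14 and 2 corrected), among them NOLC1, a nucleolar assembly factor, which rose by 1.56 (limma adjusted p = 5.73e-05, corrected 0.86). Of 25 nuclear genes of the respiratory chain 6 were higher and 15 lower (3 and 17 corrected). Of 13 mitochondrially encoded genes 8 were higher and 1 lower, but 4 and 5 after median-of-ratios scaling, so the direction of this group depended on the scaling.

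Of the signalling genes between endothelial cells and their neighbours, 4 were higher and 7 lower than in CT cells among 19 tested Notch and tip cell genes, and 8 and 6 among 19 genes of VEGF, angiopoietin and PDGF signalling (6 and 9 corrected). Without CXCR4, which passed the filter through CT cells alone, 4 Notch and tip cell genes were higher and 6 lower of 18. PDGFB, the growth factor by which endothelium recruits pericytes, had 11.01, 10.98 and 11.2 TPM in CBP300 cells, 96.1, 101 and 103 TPM in OSM cells and 25.8, 37.1 and 36.0 TPM in CT cells. OSM cells were highest and CBP300 cells lowest, with log2 changes of -1.48 against CT cells and -3.07 against OSM cells (limma adjusted p = 2e-05 and 4.5e-07). EFNB2, an ephrin that marks arteries, had 50.6, 52.3 and 51.7 TPM in CBP300 cells, 19.8, 19.7 and 19.2 TPM in OSM cells and 2.19, 10.8 and 8.12 TPM in CT cells. It had the opposite pattern, above CT cells by 2.91 and above OSM cells by 1.35 (limma adjusted p = 0.000136 and 0.033, corrected 2.19 against CT cells). CAV1, which shapes caveolae, averaged 126 ± 5.32 TPM in CBP300 cells, 433 ± 10.4 TPM in OSM cells and 414 ± 185 TPM in CT cells (SD, n = 3 each), a log2 change of -1.59 against CT cells (limma adjusted p = 0.000599, corrected -2.24). NF-kappaB genes gave 6 higher and 2 lower of 15 tested, but 3 and 8 after median-of-ratios scaling. REL and CD40 passed the filter through CBP300 cells alone, and the other 13 gave 4 higher and 2 lower. Of all tested genes 50.9% were higher and 23.7% lower. NFKBIZ, a nuclear cofactor of NF-kappaB and also a target of STAT3, had 23.5, 23.5 and 23.1 TPM in CBP300 cells, 9.38, 9.01 and 7.80 TPM in OSM cells and 0.754, 3.36 and 2.97 TPM in CT cells. CBP300 cells were above both without overlap, by 2.97 over CT cells and 1.33 over OSM cells (limma adjusted p = 5.05e-05 and 0.0167, corrected 2.15 against CT cells).

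Stress and metabolic groups were mixed. Among 14 heat shock genes 9 were higher and 3 lower (7 and 6 corrected). HSPB1, a small chaperone of the actin skeleton, had 237, 255 and 267 TPM in CBP300 cells, 739, 865 and 916 TPM in OSM cells and 2773, 1417 and 1523 TPM in CT cells. The groups were in that order without overlap, with log2 changes of -2.84 against CT cells and -1.72 against OSM cells (limma adjusted p = 1.68e-05 and 0.00112, corrected -1.91 against CT cells). Among 20 genes of the ATF4 stress response 11 were higher and 2 lower, but 8 and 8 after median-of-ratios scaling. Among 28 genes of cholesterol synthesis and uptake 13 were higher and 9 lower than in CT cells (9 and 13 corrected), and 9 and 2 than in OSM cells. MYLIP, which marks the LDL receptor for degradation, averaged 56.6 ± 3.12 TPM in CBP300 cells, 22.5 ± 3.73 TPM in OSM cells and 13.8 ± 5.06 TPM in CT cells (SD, n = 3 each). It was above CT cells by 2.03 and above OSM cells by 1.304 (limma adjusted p = 0.000107 and 0.00643). Among 16 deacetylases 5 were higher and 6 lower than in CT cells. SIRT1, a deacetylase that depends on NAD, had 68.4, 63.4 and 63.4 TPM in CBP300 cells, 27.5, 23.6 and 23.6 TPM in OSM cells and 2.16, 11.6 and 8.67 TPM in CT cells. Its log2 change of 3.18 against CT cells was 2.58 without CT replicate 1 and 1.85 corrected, and it was above OSM cells by 1.35 (limma adjusted p = 0.0461).

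The largest single changes repeat several of these groups. They were drawn from called genes without overlap that averaged 5 TPM or more in the higher group, passing over clone names and unnamed loci. The 10 largest falls were those of CLEC3B, RNASE1, PLVAP, HRCT1, TAGLN, RGS4, EDN1, PRR15, DHRS3 and the rRNA pseudogene RNA5SP202. All 10 were also lower than in OSM cells by limma. CLEC3B, which encodes the plasminogen-binding protein tetranectin, had 0.540, 0.577 and 0.559 TPM in CBP300 cells, 8.08, 10.96 and 8.56 TPM in OSM cells and 40.8, 38.8 and 41.4 TPM in CT cells. RGS4, a brake on G protein signalling, had 4.51, 4.56 and 4.50 TPM in CBP300 cells, 67.1, 63.1 and 60.2 TPM in OSM cells and 44.0, 135 and 103 TPM in CT cells. For CLEC3B the OSM cells were intermediate, and for RGS4 they overlapped with CT cells, while CBP300 cells were lowest for both. RGS4 changed by -3.96 against CT cells (limma adjusted p = 7.39e-06, corrected -5.29), and CLEC3B by -4.73 (-3.65 corrected), without a test because it passed the filter through CT cells alone. Of the 10 largest rises 3 were also higher than in OSM cells, namely KLF5, POMK and SPIN4. The rises also included the small nucleolar RNAs SNORA55 and SNORD19C, a Y RNA and the processed pseudogene RPL13P8, in libraries selected for poly(A). KLF5, a zinc finger factor of epithelial and smooth muscle cells, had 30.8, 29.7 and 29.7 TPM in CBP300 cells, 5.89, 6.20 and 5.35 TPM in OSM cells and 0.432, 1.70 and 0.827 TPM in CT cells. POMK, a kinase that completes the sugar chain of dystroglycan, had 23.5, 30.6 and 23.6 TPM in CBP300 cells, 5.86, 4.89 and 2.99 TPM in OSM cells and 0.508, 0.665 and 0.324 TPM in CT cells. Both were highest in CBP300 cells without overlap, by 4.02 (limma adjusted p = 2.55e-06, corrected 3.34) and 4.16 over CT cells and 2.19 and 2.29 over OSM cells (limma adjusted p = 0.000282 and 0.000713). The change of POMK against CT cells has no test here, since it passed the filter through CBP300 cells alone. HIPK3, a nuclear kinase, rose by 4.15 against CT cells, or 3.55 without CT replicate 1 and 2.33 corrected. HIPK3 did not pass against OSM cells (limma adjusted p = 0.0993), though its CBP300 and OSM libraries did not overlap. All 20 of these genes kept their direction and their call in corrected values, but 4 of them passed the filter through 1 group alone.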

How the data were processed

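RNA of 12 libraries, 3 for each of 4 groups, had been sequenced after a stranded, poly(A)-selected preparation, per the labels' protocols. The deposited values are TPM per gene, with 1 column per library as the file header gives it. The submitters' processing notes name Trimmomatic 0.40, Bowtie2, RSEM 1.3.3 and GRCh38 without their roles, and the annotation, filters and use of strand are not given in the sources used here. Gene symbols came from a name table that matched 60295 of 60623 gene IDs, and positions, transcript length and GC content from GENCODE release 29.

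Values were tested as log2(TPM + 1) with limma 3.58.1 in R 4.3.3, with 1 mean per group, the spread shared over all 12 libraries and Benjamini-Hochberg adjustment over the 15594 tested genes at 0.05. A change on this scale understates that of genes with low TPM. The TPM of 15589 tested genes were whole multiples of 1 read within a tolerance of 0.001, which gave the depths, and limma voom on these reads called 5926 genes higher and 5896 lower in CBP300 than in CT cells. Corrected values had a spline on GC content and another on transcript length (4 degrees of freedom each) subtracted per library. Simulated counts for 14871 genes were used to test the fit: it recovered 61 of 63 genes with a true 2-fold change and 39 of 69 with a true 1.5-fold change, and it called 2 of 14671 unchanged genes. These counts had a fixed dispersion of 0.01, no GC content or length trend and no library that stood apart. The changed genes were drawn from well-counted ones. The simulation therefore cannot give the rate of false calls in the real libraries. The members and gene lists were chosen with earlier results of these data known. The named genes were the 10 largest changes each way, with clone names and unnamed loci passed over. Up to 4 called members of each list with the largest changes, and the genes of the cytokine and acetyltransferases, were named too. Chosen after their values were seen were BCL6, BRD2, CA9, CALCRL, CD34, CEBPD, CSF1, CXCL12, DUSP1, EMCN, ETV5, FOSL1, IL6, KLF2, LIPG, MT1G, MT2A, PECAM1, RPL5, STAB1, STAT5A and TIMP1. Of the 219 genes covered, 153 had a promoter window in RefSeq. Alternatives were other pseudocounts, filters and scalings, a fit of the 6 compared libraries, a replicate block and leaving out each library. Libraries of a group treated with another compound entered the estimate of spread and are otherwise not used here. Figures were drawn with matplotlib 3.10.9.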

Additional observations from a re-analysis of the deposited data

How the results depend on the processing

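The counts of called genes moved with scaling and with the GC content and length trend. Against 7932 genes higher and 3702 lower in CBP300 than in CT cells, removal of the GC content and length trend left 5209 higher. Genes called lower numbered 5779 after median-of-ratios scaling, 5937 after quantile normalization and 5896 by limma voom on recovered reads. Changes of at least 2-fold upward, 4749 as reported, numbered 3059 with a pseudocount of 5 TPM, 3027 after median-of-ratios scaling, 2804 after quantile normalization and 1542 with the trend removed. Those downward, 1392 as reported, numbered 766 with a pseudocount of 5 TPM, 2788 after median-of-ratios scaling, 2742 after quantile normalization and 3310 by limma voom. The cause was not tested. Leaving out each of the 6 libraries in turn gave 7412 to 8138 genes higher, 3421 to 3800 lower, 3798 to 5272 at least 2-fold higher and 1226 to 1532 at least 2-fold lower. A fit with the replicate number as a block gave 7759 higher and 3632 lower, and it changed the call of none of the 219 covered genes. Same-numbered CBP300 and CT libraries had correlations of their deviations of -0.07, 0.02 and -0.08, and not every library correlated best with its own number. With 3 libraries per group such values cannot settle whether same-numbered libraries were handled together, and the labels do not say.

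Of the covered genes, 12 changed sign with the trend removed: CA9 (0.036), CD44 (-0.024), CD46 (-0.036), ERAP1 (-0.015), FOSL1 (0.0079), HDAC2 (-1.07), HSPH1 (-0.49), KLF2 (0.61), RPL5 (-0.48), SLIT2 (-0.048), STARD4 (-0.19) and UTP20 (-0.016), in log2 changes. Median-of-ratios scaling turned MT2A (-0.27) and RPL5 (-0.36), as did limma voom (-0.27 and -0.35). The other alternatives turned none of these genes. The fold of a gene near 0 TPM in 1 group is set in part by the pseudocount. Where leaving out CT replicate 1 moved a change given in the Results by more than 1.5 times in fold, the value without it stands beside. CD46 changed by 1.89 as reported and by 1.29 without that library.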
